A study of Mus musculus with 8 samples.

Results

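The genes described here are 8 genes of MHC class II antigen presentation, chosen by symbol from the 15047 genes of the deposited expression table: the chains H2-Aa, H2-Ab1 and H2-Eb1, the loading factors Cd74, H2-DMa, H2-DMb1 and Ctss, and the transactivator Ciita. All 8 of the 8 symbols had a row, and no filter on low values was applied to them. Pancreas RNA of 8 male mice in 3 groups was sequenced. The LFD group held 3 C57BL/6 WT mice on a low-fat diet, the HFD group 3 C57BL/6 WT mice on a high-fat diet with 60% of calories from fat, and the ob/ob group 2 leptin-deficient mice (C57BL/6J; ob/ob) on standard chow. Mice were put on these diets at 4 weeks of age, for 10 weeks. By the study's description all the mice also carried an orthotopic transplant of mT organoids, grown from tumours of mice that carried, among other alleles, Trp53+/LSL-R172H and a Pdx1-Cre transgene that acts in the pancreas; the labels do not mention the transplant. RNA of the injected cells and of the host pancreas was measured together. The paper does not state how long after the transplant the sequenced pancreata were taken, so the age at sampling is not known. The ob/ob mice differed from the LFD mice in both genotype and chow, so those factors cannot be told apart.

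MHC class II molecules show fragments of proteins taken up by a cell to CD4+ T cells. An alpha and a beta chain are assembled in the endoplasmic reticulum around the invariant chain, encoded by Cd74, which plugs the groove. In lysosome-like compartments cathepsin S, encoded by Ctss, trims the invariant chain down to a small remnant, and H2-DM, made of H2-DMa and H2-DMb1, exchanges that remnant for a peptide. Ciita does not bind DNA itself. It is recruited to the X and Y boxes of class II promoters by the RFX and NF-Y complexes and is the limiting factor for their transcription. Macrophages, dendritic cells and B cells express the pathway, and interferon-gamma can induce it in other cells. Pancreatic acinar cells, which make most of the RNA of this organ, ordinarily carry little of it.

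The 5 H2 genes among the 8 lie within 197 kb of chromosome 17 (GRCm38, Gencode M21). H2-DMa (chr17:34119541-34139101), H2-DMb1 (chr17:34153072-34160230), H2-Ab1 (chr17:34257689-34269419) and H2-Eb1 (chr17:34305867-34316674) are on the plus strand, and H2-Aa (chr17:34282744-34287823) is on the minus strand. Ctss (chr3:95526786-95556403), Ciita (chr16:10480059-10528418) and Cd74 lie on other chromosomes, all on the plus strand. All 8 are annotated as protein coding.

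Promoter sequences are shown because these genes are known for a shared promoter layout and moved together in the 8 mice. The RefSeq promoter table (GRCm38.p6) held windows for 5 of the 8 genes. The letters GATTGG stand for the Y box, AACNNATG for the core of the X box, TGACGTCA for a CRE-type X2 box and GAAANNGAAA for the core of an interferon-stimulated response element; all were searched on both strands of the 250 bases before each start and were chosen with these windows in view. Capitals mark the matches. The H2-Aa window (chr17:34287844-34287973, minus strand) and the H2-Eb1 (chr17:34305717-34305846) and H2-DMb1 (chr17:34153041-34153170) windows, both plus strand, run from 150 to 21 bases before the start. The Ctss window (chr3:95526706-95526785, plus strand) runs over the last 80 bases before the start. H2-Ob (chr17:34238755-34238884, plus strand), a chain of the loading inhibitor H2-DO that is not among the 8 genes, is shown for its layout, since its level was highest in an LFD mouse.
H2-Aa: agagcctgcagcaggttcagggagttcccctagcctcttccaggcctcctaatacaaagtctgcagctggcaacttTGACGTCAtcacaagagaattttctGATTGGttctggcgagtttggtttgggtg
H2-Eb1: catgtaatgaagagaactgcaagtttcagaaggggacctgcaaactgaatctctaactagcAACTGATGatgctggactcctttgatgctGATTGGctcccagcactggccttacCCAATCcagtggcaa
H2-DMb1: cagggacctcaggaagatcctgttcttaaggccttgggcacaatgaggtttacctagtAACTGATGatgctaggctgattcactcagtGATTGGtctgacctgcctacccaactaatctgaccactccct
Ctss: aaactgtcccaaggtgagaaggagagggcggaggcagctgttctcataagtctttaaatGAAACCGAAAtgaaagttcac
H2-Ob: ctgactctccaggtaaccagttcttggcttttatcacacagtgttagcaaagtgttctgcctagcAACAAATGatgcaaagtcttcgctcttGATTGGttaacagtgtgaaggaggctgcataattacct

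GATTGG began 49 bases before the start in H2-Aa, 60 in H2-Eb1, 62 in H2-DMb1 and 58 in H2-Ob, and 14.6% of all 32851 windows in the table held it on one strand or the other. In H2-Eb1 and H2-DMb1 AACNNATG preceded it, with 21 and 22 bases between the motifs, and in H2-Ob with 19. That order, with a gap of up to 40 bases on either strand, was found in 36 windows, or 0.11% of the table. The H2-Aa window held TGACGTCA 74 bases before the start (1.55% of windows) and not AACNNATG. Ctss held AACCGATG 207 bases before the start, upstream of the part shown, and no GATTGG, and its GAAACCGAAA began 21 bases before the start, a form of GAAANNGAAA, which 2.98% of windows held. H2-DMa had 2 windows, both inside its annotated span, of which one held GATTGG, 199 bases before the start. Any other start of H2-DMa was not searched. These matches describe letters in reference windows and were not tested for binding.

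The values are rlog values, a log2 scale on which counts are corrected for library size and the spread of low counts is shrunk, so that 1 unit is about 2-fold. Depth is not known from these values. Where genes are set against each other within a mouse, the size of the difference is set in part by gene length. Only its course over the mice is read. Acinar markers such as digestive enzymes were high on average in every mouse, as pancreas should be, but their mean over 18 genes was 17.4 to 17.8 in the LFD mice, 17.7, 15.7 and 13.7 in the 3 HFD mice and 17.05 and 14.1 in the ob/ob mice. HFD replicate 1 therefore sat among the LFD mice by acinar markers, and HFD replicates 2 and 3 and ob/ob replicate 2 were lower. LFD replicate 2 stood apart by B cell markers: 9 of 10 were highest there, their mean was 5.86 against 3.51 to 4.20 in the other 7 mice, and Pax5, a B cell transcription factor, was 7.13 there against 1.57 to 2.80. No source used here says that replicates came from one litter or cage. In whole tissue, more cells of a type and more RNA per cell cannot be told apart.

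**Figure D1:**
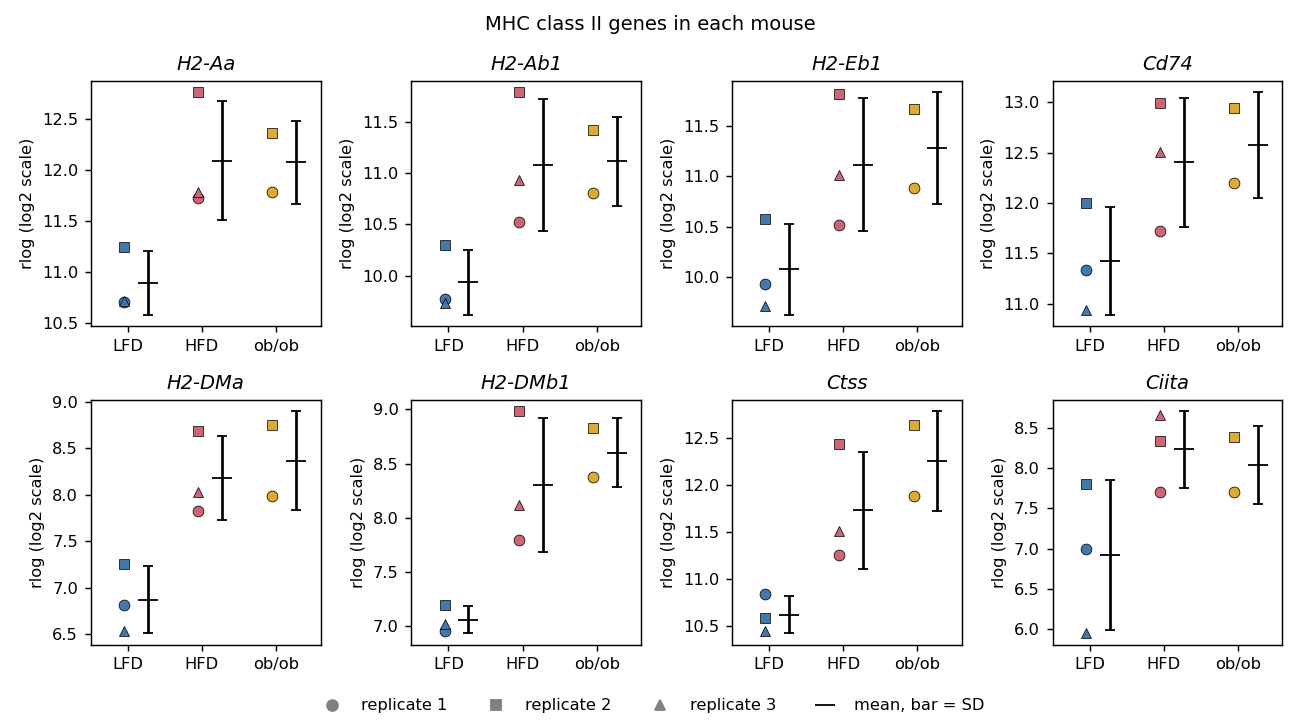
The rlog value (log2 scale, y axis, a range of its own for each gene) of the 8 class II genes in every mouse, by group (x axis); symbols mark the replicate number and the bar beside each group gives the mean and SD of 3 LFD, 3 HFD or 2 ob/ob mice. The LFD points lie lowest, and in H2-Eb1, Cd74 and Ciita LFD replicate 2 reaches the lowest obese mouse.

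All 8 genes had higher means in HFD and in ob/ob than in LFD, by 1.97- to 2.49-fold in HFD and 2.19- to 3.11-fold in ob/ob, but none passed an adjusted p of 0.05. For each gene the lowest mouse was an LFD mouse and the highest an HFD or ob/ob mouse. Of 15047 genes, 0% passed an adjusted p of 0.05 (limma, Benjamini-Hochberg over all genes) in HFD against LFD, in ob/ob against LFD, in ob/ob against HFD, or in the mean of the HFD and ob/ob groups against LFD. The smallest adjusted p of any gene was 0.0864, 0.135, 0.883 and 0.0598 in these comparisons, and 2985, 2831, 588 and 3825 genes had an unadjusted p under 0.05. The study itself used DESeq2 on counts and reported genes with an adjusted p under 0.05. The 0% therefore holds for limma on the rlog values only. The comparisons with LFD share its 3 mice, so their values are given side by side.

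H2-Aa encodes the alpha chain of I-A, the class II molecule that C57BL/6 mice carry at the cell surface. Its rlog values were 10.71, 11.25 and 10.72 in the LFD mice, 11.72, 12.76 and 11.79 in the HFD mice and 11.79 and 12.36 in the ob/ob mice. All 5 obese mice lay above all 3 LFD mice. The difference from LFD was 1.20 ± 0.32 (SE) for HFD (adjusted p = 0.180, limma) and 1.18 ± 0.36 for ob/ob (adjusted p = 0.204, limma).

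H2-Ab1 encodes the beta chain that pairs with it. It measured 9.77, 10.30 and 9.73 in LFD, 10.52, 11.79 and 10.93 in HFD and 10.80 and 11.42 in ob/ob mice. The groups did not overlap here either. HFD was higher than LFD by 1.15 ± 0.34 (SE; adjusted p = 0.181, limma) and ob/ob by 1.18 ± 0.38 (adjusted p = 0.210, limma). H2-Aa exceeded H2-Ab1 by 0.86 to 1.20 in each of the 8 mice, a difference on the rlog scale that is set in part by gene length but whose range over mice was narrow, so that both chains followed the same course from mouse to mouse.

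H2-Eb1 encodes the beta chain of I-E. Mice of the C57BL/6 background lack a functional partner alpha chain, and H2-Ea had no row in the table. H2-Eb1 was nevertheless measured at 9.93, 10.58 and 9.72 in LFD, 10.52, 11.82 and 11.01 in HFD and 10.88 and 11.67 in ob/ob mice. LFD replicate 2 exceeded HFD replicate 1, so that the groups overlapped. The difference was 1.04 ± 0.38 (SE) in HFD (adjusted p = 0.213, limma) and 1.20 ± 0.42 in ob/ob (adjusted p = 0.223, limma), and H2-Eb1 stayed within -0.02 to 0.28 of H2-Ab1 in each mouse.

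Cd74 (chr18:60803848-60812652), the invariant chain, showed the smallest HFD difference of the 8 genes. Its values were 11.34, 11.996 and 10.94 in LFD, 11.72, 12.99 and 12.50 in HFD and 12.20 and 12.95 in ob/ob mice. LFD replicate 2 again lay above HFD replicate 1 and below the other 4 obese mice. HFD was higher by 0.98 ± 0.39 (SE; adjusted p = 0.229, limma) and ob/ob by 1.15 ± 0.44 (adjusted p = 0.237, limma).

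H2-DMa and H2-DMb1 form the peptide exchange factor. H2-DMa was 6.82, 7.26 and 6.54 in LFD, 7.82, 8.69 and 8.03 in HFD and 7.99 and 8.75 in ob/ob mice, with every obese mouse above every LFD mouse. HFD differed from LFD by 1.31 ± 0.31 (SE; adjusted p = 0.177, limma) and ob/ob by 1.50 ± 0.35 (adjusted p = 0.168, limma). Of the 31-base words in the H2-DMa transcripts (Gencode M21), 9.23% are shared with Brd2, so how reads were divided between these genes is uncertain.

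H2-DMb1 was 6.95, 7.20 and 7.02 in LFD, 7.80, 8.99 and 8.12 in HFD and 8.38 and 8.82 in ob/ob mice. Its LFD mice were the most alike of the 8 genes (SD 0.12, n = 3) and none reached an obese mouse. The differences were 1.24 ± 0.30 (SE) in HFD (adjusted p = 0.177, limma) and 1.54 ± 0.34 in ob/ob (adjusted p = 0.157, limma). The neighbouring paralog H2-DMb2 shares 31.4% of the 31-base words in the H2-DMb1 transcripts (Gencode M21), so how reads were divided between the paralogs is uncertain. H2-DMa minus H2-DMb1 ranged from -0.49 to 0.06 over the mice without a separation of the groups.

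Ctss, cathepsin S, had the largest ob/ob difference of the 8 genes. It measured 10.84, 10.58 and 10.45 in LFD, 11.25, 12.44 and 11.51 in HFD and 11.89 and 12.64 in ob/ob mice, and the obese mice lay above the LFD mice without overlap. The difference was 1.11 ± 0.33 (SE) for HFD (adjusted p = 0.183, limma) and 1.64 ± 0.37, or 3.11-fold, for ob/ob (adjusted p = 0.165, limma). LFD replicate 2, which was the highest LFD mouse for the other 7 genes, was the middle one for Ctss.

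Ciita varied most within a group. It was 7.00, 7.81 and 5.94 in the LFD mice (SD 0.93, n = 3), 7.71, 8.34 and 8.66 in the HFD mice and 7.70 and 8.39 in the ob/ob mice. LFD replicate 2 lay above HFD replicate 1 and ob/ob replicate 1. The difference was 1.32 ± 0.46 (SE) in HFD (adjusted p = 0.206, limma) and 1.13 ± 0.52 in ob/ob (adjusted p = 0.276, limma), and the ob/ob interval, -0.05 to 2.31, held 0. Ciita has several promoters, used in dendritic cells and macrophages, in B cells and after interferon-gamma, and the table gives 1 value for the whole gene.

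**Figure D2:**
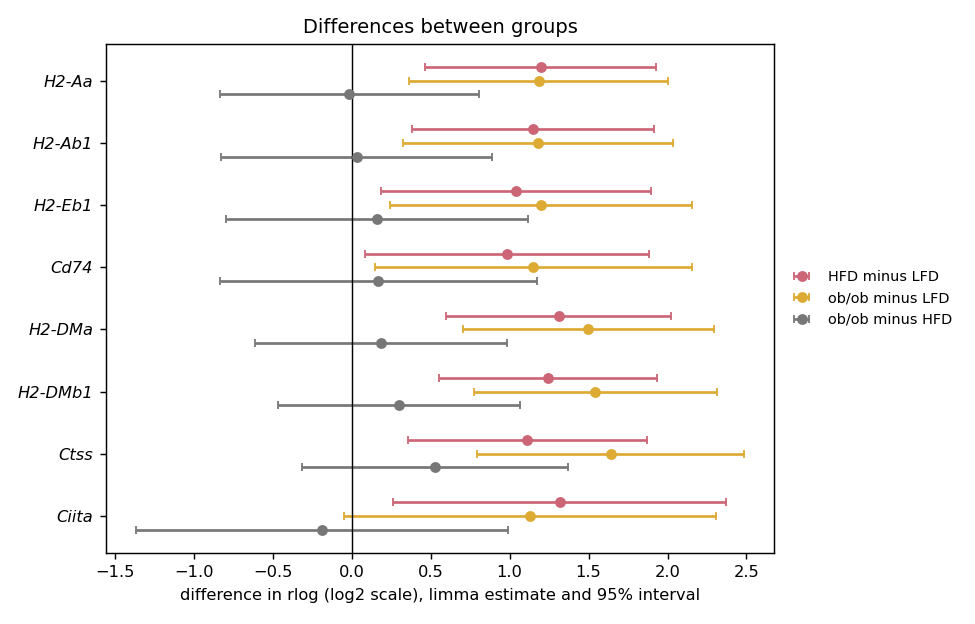
Differences in rlog (x axis, log2 scale) for the 8 genes (y axis) with limma 95% intervals, for HFD minus LFD, ob/ob minus LFD and ob/ob minus HFD. The points for HFD and for ob/ob against LFD lie between 0.98 and 1.64, and those for ob/ob against HFD lie around 0, from -0.19 to 0.53.

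Read against the whole table, an unadjusted p under 0.05 with a higher mean was met by 8 of the 8 genes in HFD against LFD, where 11.5% of all genes met it. It was met by 7 of 8 in ob/ob against LFD (the exception was Ciita), where 11.6% did. In the mean of the obese groups against LFD it was met by 8 of 8, where 14.5% did. The median difference of the 8 genes was 1.17, 1.19 and 1.21 in these comparisons, and that of all genes was 0.03, 0.04 and 0.04. Both obese groups together gave adjusted p-values from 0.0892 to 0.138 (limma), the lowest for H2-DMa and H2-DMb1. With HFD replicate 1 left out, 7 of the 8 genes passed an adjusted p of 0.05 in HFD against LFD (limma, 0.0174 to 0.0552, Ciita being the exception) beside 18.7% of all genes, and 8 of 8 passed in the obese mean against LFD (0.0124 to 0.0466) beside 22.1% of all genes. With ob/ob replicate 1 left out, 3 of the 8, H2-DMa, H2-DMb1 and Ctss, passed in the obese mean against LFD, beside 3.16% of all genes. The count of 8 genes at the unadjusted p in HFD against LFD became 5 without LFD replicate 3, where 6.52% of all genes met it, and 5 without HFD replicate 2, where 6.04% did, and the count of 7 in ob/ob against LFD became 3 without ob/ob replicate 2, where 4.03% did.

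By separation of the groups, 5 of the 8 genes had every HFD mouse above every LFD mouse, where 12.9% of all genes did, and 7 of 8 had both ob/ob mice above every LFD mouse, where 24.1% did. For 5 of the 8 genes each of the 5 obese mice exceeded each LFD mouse, where 9.4% of all genes showed this. LFD replicate 2 made the overlaps of H2-Eb1, Cd74 and Ciita: without it the count was 8 of 8 in each of these comparisons, with 19.3%, 30.8% and 15.2% of all genes. Without HFD replicate 1 the count against HFD was also 8 of 8, with 30% of all genes. A two-sided exact permutation test of the 5 obese against the 3 LFD mice, over 56 regroupings, gave p = 0.0179 for H2-Aa, H2-Ab1, H2-DMa and H2-DMb1, which is the smallest it can give. The exact permutation p was 0.0357 for Ctss, 0.0536 for Cd74 and Ciita and 0.0714 for H2-Eb1, each unadjusted for the 8 genes tested.

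The ob/ob and HFD groups overlapped for each of the 8 genes. An unadjusted p under 0.05 with a higher ob/ob mean was met by 0 of the 8 genes, where 2.28% of all genes met it, and no gene of the 8 had both ob/ob mice above all HFD mice, where 7.92% of all genes did. H2-Aa differed by -0.01 (95% interval -0.83 to 0.80, limma) and Ctss by 0.53 (-0.32 to 1.37), and over the 8 genes the lower bounds ran from -1.37 to -0.32 and the upper bounds from 0.80 to 1.37. The mean of all 8 genes was 9.22 ± 0.37 (SD, n = 3) for LFD, 10.39 ± 0.55 for HFD (SD, n = 3) and 10.54 ± 0.47 for ob/ob mice (SD, n = 2).

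Within single mice the genes kept different company. Ctss minus H2-Aa was 0.10 and 0.27 in the ob/ob mice, above -0.47, -0.33 and -0.27 in the HFD mice, whereas the LFD mice ran from -0.67 to 0.13. For ob/ob against HFD the exact permutation p of that difference was 0.10, the smallest that 3 against 2 mice allow. Across the 8 mice Pearson's r was 0.887 to 0.991 over the 21 pairs of genes that leave out Ciita, and 0.713 to 0.910 over the 7 pairs with Ciita. These points share mice and groups, so the values are descriptive.

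**Figure D3:**
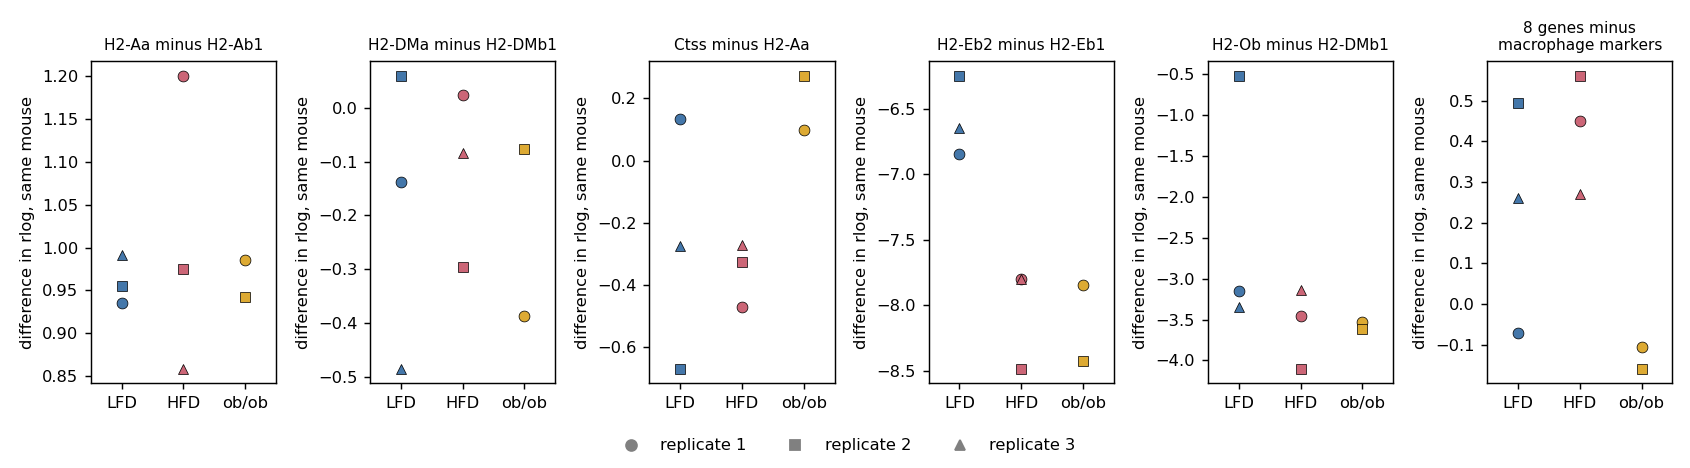
Differences in rlog between genes, or between gene means, within the same mouse (y axis, a range of its own in each panel) by group (x axis), with the replicate number as the symbol. H2-Aa minus H2-Ab1 stays between 0.86 and 1.20, Ctss minus H2-Aa is higher in the 2 ob/ob mice than in the 3 HFD mice, and H2-Eb2 minus H2-Eb1 is lower in all 5 obese mice than in the LFD mice.

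Counts of other gene lists at an unadjusted p under 0.05 with a higher obese mean are to be read against 14.5% of all genes, or 11.7% without LFD replicate 2 and 21.2% without HFD replicate 1. The remaining class II chains depended on 1 mouse. Of H2-Oa and H2-Ob, the chains of the loading inhibitor H2-DO that is known from B cells, and the paralogs H2-DMb2 and H2-Eb2, 0 of 4 had an unadjusted p under 0.05 in any comparison with LFD, with a median difference of 0.30 between the obese mean and LFD. Without LFD replicate 2, 3 of the 4, H2-DMb2, H2-Oa and H2-Ob, had an unadjusted p under 0.05 and every obese mouse above the LFD mice that were left, and the median was 0.97. H2-Ob was 3.80, 6.68 and 3.68 in LFD, 4.34, 4.89 and 4.98 in HFD and 4.85 and 5.21 in ob/ob mice. The highest mouse was thus LFD replicate 2, which also had the highest B cell markers, and the part of those cells in the value was not tested. H2-Ob minus H2-DMb1 was -0.51 in that mouse and -4.10 to -3.14 in the other 7. H2-Eb2 was 3.09, 4.33 and 3.07 in LFD, 2.71, 3.33 and 3.21 in HFD and 3.04 and 3.25 in ob/ob mice. HFD was lower than LFD by 0.41 with an SE of 0.39 (adjusted p = 0.560, limma), but that sign rested on LFD replicate 2, without which the obese mean was the higher one for 4 of the 4 chains. The within-mouse difference H2-Eb2 minus H2-Eb1 was -6.85 to -6.25 in LFD and -8.48 to -7.80 in the obese mice, without overlap. The higher H2-Eb1 of the obese groups enters this difference. H2-Eb2 had low values, where rlog shrinks the spread, and the part of that shrinkage in the difference was not tested. H2-DMb2 differed by 0.84 ± 0.55 and H2-Oa by 0.56 ± 0.42 between ob/ob and LFD (adjusted p = 0.404 and 0.464, limma). The H2-Ob window printed above holds the X and Y letters in the same order as those of H2-Eb1 and H2-DMb1, whose highest mouse was HFD replicate 2.

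The factors that hold Ciita on these promoters had small differences from LFD. Of Rfx5, Rfxap, Rfxank, Nfya, Nfyb, Nfyc and Creb1, 0 of 7 had an unadjusted p under 0.05 in any comparison with LFD, and the median difference between the obese mean and LFD was -0.08. Rfx5, the DNA-binding RFX subunit, was lower in HFD than LFD by 0.40 with an SE of 0.25, and Nfya was higher by 0.35 ± 0.28 (adjusted p = 0.379 and 0.488, limma). In ob/ob against HFD, Rfx5 differed by 0.64 ± 0.27 with both ob/ob mice above all HFD mice, as for 7.92% of all genes. It was the single factor of the 7 with an unadjusted p under 0.05 there (adjusted p = 0.9996, limma). Of all genes 2.28% met that threshold with a higher ob/ob mean. Rfxap and Rfxank, the other RFX subunits, had ob/ob differences of -0.46 ± 0.25 and -0.32 ± 0.28 from LFD (adjusted p = 0.322 and 0.519, limma). For both genes the ob/ob mice lay below all LFD mice, as for 3277 of the 15047 genes. For Rfxap they also lay below all HFD mice, as for 815 of the 15047.

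Genes of the interferon-gamma axis had a smaller median difference from LFD than the class II genes. Of 7 genes, all 7 had a higher obese mean than LFD mean and 3 had an unadjusted p under 0.05, Ifngr1, Jak2 and Irf8, and the median difference was 0.59. Without HFD replicate 1, 6 of the 7 did, where the share of all genes also grew, to 21.2%. Ifngr1, a chain of the receptor, was 8.96, 9.19 and 8.89 in LFD, 9.39, 10.31 and 9.93 in HFD and 9.62 and 10.14 in ob/ob mice. Its obese mice did not overlap the LFD mice, and the difference was 0.86 ± 0.25 (SE) in HFD and 0.87 ± 0.28 in ob/ob (adjusted p = 0.181 and 0.210, limma). Irf8, a factor of myeloid and B cells, differed by 0.88 ± 0.43 in HFD and 1.24 ± 0.48 in ob/ob (adjusted p = 0.284 and 0.239, limma). Ifng, the ligand, had no row.

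Among 8 other lysosomal genes of antigen processing, 4 had an unadjusted p under 0.05 with a higher obese mean, Ctsh, Lgmn, Ctsb and Ctsz, and 0 with a lower one, with a median of 0.52. Ctsh, an aminopeptidase of the cathepsin family, was higher by 1.21 ± 0.25 (SE) in HFD and 1.29 ± 0.28 in ob/ob (adjusted p = 0.175 and 0.157, limma). Lgmn, an asparaginyl endopeptidase that takes part in invariant chain cleavage, was 9.31, 9.35 and 8.76 in LFD, 9.33, 10.64 and 10.42 in HFD and 10.87 and 11.67 in ob/ob mice. HFD replicate 1 lay within the LFD mice, and the ob/ob mice were the highest of all. The Lgmn difference was 0.99 ± 0.37 in HFD and 2.13 ± 0.41 in ob/ob (adjusted p = 0.215 and 0.139, limma). Ctsl and Cst3, the latter a cathepsin inhibitor, had lower obese means.

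Of 6 genes for turnover of class II molecules or costimulation, 4 had an unadjusted p under 0.05 with higher obese means, March1, Cd83, Cd80 and Cd86, with a list median of 1.21. Cd86, a ligand of CD28 on T cells, was 5.80, 6.17 and 5.59 in LFD, 6.63, 7.34 and 7.00 in HFD and 6.86 and 7.72 in ob/ob mice. The groups did not overlap, and the difference was 1.14 ± 0.31 (SE) in HFD (adjusted p = 0.180, limma). Cd80, its relative, differed by 1.40 ± 0.46 in HFD (adjusted p = 0.194, limma). March1 is the ubiquitin ligase that removes class II molecules from the surface, and Cd83 opposes it. In ob/ob against LFD both differed by 1.48 ± 0.44 (SE), each with an adjusted p of 0.200 (limma).

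MHC class I presentation, which shows fragments of a cell's own proteins, had a smaller median difference from LFD than class II. Of 9 class I genes, 2 had an unadjusted p under 0.05 in the obese mean against LFD, B2m and Psmb8, and the list median was 0.50 against 1.21 for the 8 class II genes and 0.04 for all genes. Without LFD replicate 2, 5 of the 9 had an unadjusted p under 0.05, with a median of 0.85, and without HFD replicate 1, 5 of the 9, with a median of 0.67, beside 11.7% and 21.2% of all genes. The class II mean minus the class I mean was 0.83, 0.63 and 0.61 in the LFD mice, 1.39, 1.71 and 1.14 in the HFD mice and 1.35 and 1.64 in the ob/ob mice. The LFD and obese mice did not overlap in that value. Nlrc5, which serves class I promoters as Ciita serves class II, differed by 1.08 ± 0.47 (SE) in HFD (adjusted p = 0.249, limma). B2m differed by 0.90 ± 0.32 and Psmb8, a subunit of the immunoproteasome, by 0.88 ± 0.31 in ob/ob (adjusted p = 0.225 and 0.222, limma).

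**Figure D4:**
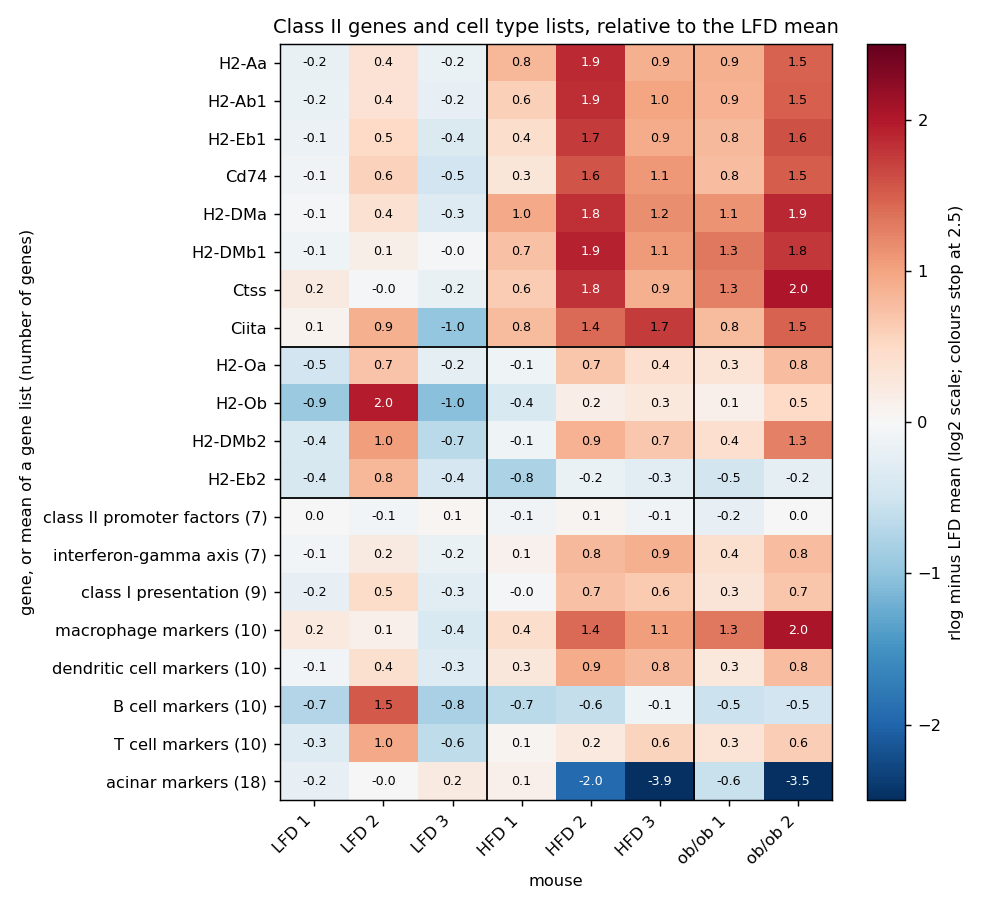
The rlog value minus the LFD mean (numbers and colours, log2 scale) of the 8 genes, of 4 other class II chains and of the mean of 8 gene lists (y axis), in each of the 8 mice (x axis). The 8 genes are above 0 in all 5 obese mice, H2-Ob and the B cell markers are highest in LFD replicate 2, and the acinar markers are lowest in HFD replicate 3 and ob/ob replicate 2.

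Markers of cells that present antigen were compared beside these genes. Of 10 macrophage markers, 10 had an unadjusted p under 0.05 with higher obese means, and their median difference was 1.38. Their mean was 8.62 to 9.24 in LFD, 9.43 to 10.41 in HFD and 10.31 and 11.03 in ob/ob mice. Adgre1, the macrophage marker F4/80, was 8.75, 8.58 and 8.15 in LFD, 9.30, 10.12 and 9.82 in HFD and 10.15 and 10.60 in ob/ob mice, a difference of 1.26 ± 0.26 (SE) for HFD and 1.88 ± 0.29 for ob/ob (adjusted p = 0.175 and 0.137, limma). C1qb, of the complement component C1q, differed by 1.17 ± 0.28 and 1.86 ± 0.31 (adjusted p = 0.177 and 0.137, limma). Csf1r, the receptor for the macrophage growth factor, ran from 8.93 to 9.79 in LFD, from 9.77 to 10.86 in HFD and from 10.77 to 11.77 in ob/ob mice. C1qa ran from 9.73 to 9.92, from 10.29 to 11.42 and from 11.18 to 11.97. The mean of the 8 class II genes minus that of the macrophage markers was -0.07, 0.50 and 0.26 in LFD, 0.45, 0.56 and 0.27 in HFD and -0.10 and -0.16 in ob/ob mice, so that relative to macrophage markers the class II genes were lowest in the ob/ob mice. The part of macrophage number in the class II values was not tested.

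**Figure D5:**
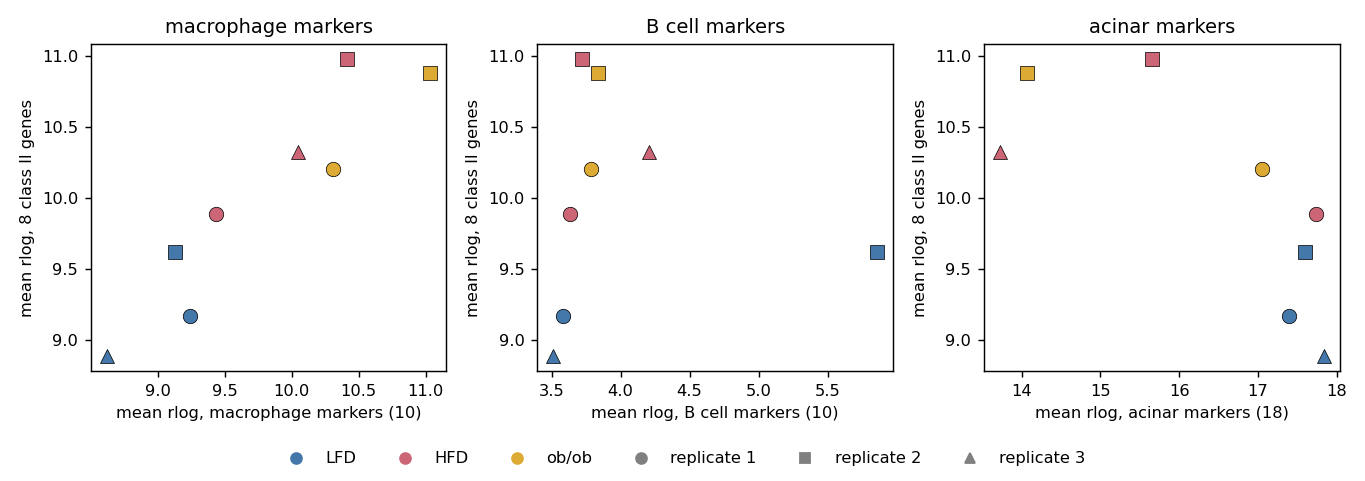
The mean rlog of the 8 class II genes (y axis) against the mean rlog of 10 macrophage, 10 B cell and 18 acinar markers (x axes) in the 8 mice, with the group as colour and the replicate number as symbol. The 5 obese mice lie above the 3 LFD mice on both the class II and the macrophage axis, LFD replicate 2 is alone at high B cell markers, and HFD replicate 1 has the acinar level of the LFD mice.

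Of 10 dendritic cell markers, 2, Itgax and Fscn1, had an unadjusted p under 0.05 in the obese mean against LFD, a share near the 14.5% of all genes, with a median of 0.54. The count was 3 without LFD replicate 2 and 4 without HFD replicate 1, beside 11.7% and 21.2% of all genes. With every mouse kept, 9 of the 10 had a higher obese mean than LFD mean, as did 8056 of the 15047 genes. Itgax, which encodes CD11c and is also expressed by macrophages, differed by 1.74 ± 0.52 (SE) in HFD and 1.49 ± 0.58 in ob/ob (adjusted p = 0.183 and 0.242, limma). Fscn1, of mature dendritic cells, differed by 1.08 ± 0.55 and 1.29 ± 0.61 (adjusted p = 0.299 and 0.284, limma). Of the genes that define dendritic cells, 3 overlapped between the groups. Flt3 ran from 4.03 to 5.33 in LFD and from 3.85 to 5.81 in the obese mice, Xcr1 from 3.51 to 4.18 and from 3.64 to 4.56, and Zbtb46 from 7.43 to 7.95 and from 6.81 to 8.02. Batf3, a factor for the development of a dendritic cell type, did not overlap. It ran from 3.66 to 3.99 in LFD and from 4.15 to 4.88 in the obese mice. Of all genes 9.4% had every obese mouse above every LFD mouse. Batf3 is named after its values were seen. Without LFD replicate 2, all 5 obese mice were above the LFD mice for 8 of the 10 markers, where 15.2% of all genes showed this.

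B cell markers had lower means in the obese mice, through 1 LFD mouse. Of 10, 0 had an unadjusted p under 0.05, 2 had a higher obese mean, and the median difference was -0.46. Pax5 in HFD was lower by 1.54 with an SE of 1.24 (adjusted p = 0.491, limma). Ms4a1, which encodes CD20, ran from 4.04 to 6.76 in LFD and from 4.56 to 5.14 in the obese mice, and Cd79a from 3.04 to 5.13 and from 3.10 to 4.07. In each of these genes LFD replicate 2 was the highest of the 8 mice. Without it the direction turned: 8 of the 10 markers had a higher obese mean, with a median of 0.24, and 1, Blk, had an unadjusted p under 0.05.

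Of 10 T cell markers, the cells that read class II, 1 had an unadjusted p under 0.05, Il7r, near the 14.5% of all genes, with a difference of 1.02 ± 0.34 (SE) in HFD (adjusted p = 0.200, limma), and the list median was 0.35. Without LFD replicate 2, 7 of the 10 did, beside 11.7% of all genes, with a median of 0.85. With every mouse kept, 10 of the 10 had a higher obese mean than LFD mean, as did 8056 of the 15047 genes. Cd4, the co-receptor for class II, was 5.43, 5.29 and 3.73 in LFD, 4.93 to 5.98 in HFD and 5.34 and 5.05 in ob/ob mice. The groups overlapped. Cd3e ran from 2.37 to 4.03 in LFD and from 2.86 to 3.83 in the obese mice, and Cd8a, of the cells that read class I, differed by 0.73 ± 0.68 in ob/ob (adjusted p = 0.549, limma).

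Acinar markers, with a mean lower in 4 of the 5 obese mice than in any LFD mouse, moved opposite to the class II genes. HFD replicate 1, whose acinar mean was 17.7, had a class II mean of 9.88 against 9.17, 9.62 and 8.88 in the LFD mice, and 5 of the 8 class II genes, H2-Aa, H2-Ab1, H2-DMa, H2-DMb1 and Ctss, were above every LFD mouse there. With the acinar mean as a covariate, the median difference of the 8 genes was 0.86 in HFD and 0.95 in ob/ob against LFD. Single genes moved further, Cd74 from 0.98 to 0.56 in HFD and from 1.15 to 0.69 in ob/ob, and Ciita from 1.13 to 0.61 in ob/ob. The adjusted p-values of the 8 genes were then 0.337 to 0.588 in HFD and 0.236 to 0.714 in ob/ob (limma). Of 9 neutrophil markers 6 had a row. All 6 had a higher obese mean than LFD mean at an unadjusted p under 0.05, beside 14.5% of all genes. In HFD against LFD 6 of the 6 met it, beside 11.5%, and in ob/ob against LFD 3 of the 6, beside 11.6%. The ob/ob mean was above the HFD mean for 0 of the 6. S100a8 differed by 2.65 ± 0.39 (SE) in HFD (adjusted p = 0.150, limma) and Mmp9 by 1.39 ± 0.49 in ob/ob (adjusted p = 0.224, limma). S100a9, the partner of S100a8, differed by 2.52 ± 0.44 and 1.34 ± 0.49 in HFD and ob/ob (adjusted p = 0.162 and 0.231, limma). Among the acinar genes Amy2a5 and Pnlip had the largest HFD differences, -2.19 and -2.13. Cela1 and Cela2a had the largest ob/ob differences, -2.49 and -2.38. Each had a limma SE above its size or close to it, from the fit with a trend on the mean. For Amy2a5 in HFD against LFD that SE was 8.73, above the SDs of 0.38, 2.08 and 2.11 within LFD, HFD and ob/ob.

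Markers of the other pancreatic cells did not share one course with the class II genes. Of 6 duct markers, 1 had an unadjusted p under 0.05 with a higher obese mean, Krt7, a duct keratin that carcinoma cells also make, and 3 did without HFD replicate 1. Krt7 and Krt19 differed by 1.79 ± 0.48 (SE) and 1.34 ± 0.46 in HFD (adjusted p = 0.180 and 0.203, limma), and in ob/ob Krt7 differed by 0.44 ± 0.53 (adjusted p = 0.645, limma). Of 10 islet markers, 7 were higher in ob/ob than LFD at an unadjusted p under 0.05, beside 11.6% of all genes, and 8 were higher in ob/ob than HFD, beside 2.28%. In the obese mean 0 met that threshold, with negative HFD differences led by Gcg (-0.86) and Sst (-0.78) and positive ob/ob differences led by Scg2 (1.63) and Iapp (1.62). Without LFD replicate 2, 4 of the 10 met it. Of 7 adipocyte markers, Lep had a higher and Cfd a lower obese mean at that threshold, with differences of 1.17 and -1.68 in HFD and 1.34 and -2.13 in ob/ob.

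The genes most like the class II genes were named by Pearson's r over the 8 mice with the mean of H2-Aa, H2-Ab1, H2-Eb1 and Cd74, among 11825 other genes with a mean rlog of at least 5. Among the 10 highest were Bid, Psmb8, Slfn2, Ifngr1, Plekho1, Samsn1, Cnn2, Gng11 and B2m, with r from 0.993 for Bid to 0.976 for B2m. Psmb8 and B2m belong to class I presentation and Ifngr1 to the interferon-gamma receptor. For Ciita the highest were Ptprc, Parp14, Plxnc1, Il7r, Rel, Ifi203, LOC102641031, AI467606, Rasgrp1 and Impa2, with r from 0.984 to 0.966. Ifi203 and LOC102641031 carry the same values in the table. Ptprc, which encodes CD45 of all white blood cells, had means of 9.26, 10.20 and 10.25 in LFD, HFD and ob/ob. The lists share no gene. With 8 mice in 3 groups many genes reach such values: 453 genes, or 3.83%, had an r of at least 0.9 with the class II mean and 169, or 1.43%, with Ciita.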

How the data were processed

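Total RNA from the pancreata of 3 LFD, 3 HFD and 2 ob/ob mice was sequenced in paired-end mode. Per the authors' methods and processing notes, reads were quantified with Salmon 0.11.3 against Gencode M18 (GRCm38.p6), and the deposited table holds rlog values from DESeq2 1.22.2, a log2 scale, for 15047 gene symbols; read totals and any filter on genes are not given in the sources used here. The values were used as deposited. Groups and replicate numbers came from the labels. limma 3.58.1 in R 4.3.3 fitted 1 mean per group over all 8 mice, with empirical Bayes and a trend on the mean, and p-values were adjusted by Benjamini-Hochberg over all genes; the script was tested on simulated data. Single genes were also compared by exact permutation. Replicates are separate mice by their labels. The 8 genes, the gene lists, the motifs and the rule for named genes (per list, the 2 largest differences of HFD and of ob/ob from LFD, defining cell markers, and the 10 genes most like the class II mean or Ciita) were chosen with earlier results of these data known. The lists of cell markers and pathway genes come from general knowledge. Alternatives were limma without the trend, the compared groups alone, a filter on low values, median centring, quantile normalization, array weights, a replicate block, an acinar covariate and leaving out each mouse. Counts of gene lists without LFD replicate 2 or HFD replicate 1 were added after seeing the data. A few genes that the rule names are not reported here.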

Additional observations from a re-analysis of the deposited data

How the results depend on the processing

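Direction from LFD held for each of the 8 genes under every alternative run. Counts of all genes with an adjusted p under 0.05 (limma) did change from 0. Array weights gave 6656 genes in HFD against LFD and 4286 in the obese mean against LFD, with a median of the 8 genes of 1.70 in HFD. Under them 8 of the 8 class II genes passed in HFD against LFD (adjusted p = 0.000794 to 0.0125, limma) and 7, not Ciita, in the obese mean. The weights did not converge and put 9.36 on HFD replicate 2 and 0.273 on HFD replicate 1. Fitting only the groups compared gave 1 gene in HFD and 38 in ob/ob against LFD, and the acinar covariate gave 1 gene for each comparison that has ob/ob mice in it. Leaving out each mouse gave 0 to 2812 genes in HFD against LFD, 0 to 89 in ob/ob against LFD, 0 to 1 in ob/ob against HFD and 0 to 3326 in the obese mean, the highest without HFD replicate 1 except for ob/ob against HFD. The cause of these changes was not tested.

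Signs between ob/ob and HFD were not stable. The median of the 8 genes, 0.16, was -0.33 with array weights and from -0.22 to 0.53 with a mouse left out. Array weights gave -0.60 for H2-Ab1, -0.47 for H2-Eb1, -0.36 for Cd74, -0.26 for H2-DMa, -0.31 for H2-DMb1 and -0.10 for Ctss, and quantile normalization gave 0.030 for H2-Aa. Leaving out a mouse moved H2-Aa from -0.30 to 0.32, H2-Ab1 from -0.28 to 0.39, H2-Eb1 from -0.23 to 0.55, Cd74 from -0.20 to 0.54, H2-DMa from -0.19 to 0.57 and Ciita from -0.53 to 0.15.

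Deviations from the group means correlated at -0.28 to 0.59 between same-numbered mice and at -0.59 to 0.44 between differently numbered mice. Centring on groups of 2 or 3 mice ties these values to one another. They therefore cannot decide whether replicate numbers pair the mice. A fit with the replicate block gave 0 genes in each comparison, medians of 1.17 in HFD and 1.09 in ob/ob against LFD and -0.055 for H2-Ab1 in ob/ob against HFD.

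Depth is unknown, so the precision of genes with low values, such as H2-Eb2 and H2-Oa, cannot be given.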
